A study of Mus musculus with 4 samples.

Results

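The 9 genes described here make or receive 2 families of lipid mediators, the prostaglandins and the leukotrienes. They were chosen by symbol among the 31053 mouse features of a single-cell RNA-seq study of mammary tumours, and all 9 were found. Ptgs1 and Ptgs2 encode the cyclooxygenases COX-1 and COX-2. Ptges and Hpgds encode synthases that complete prostaglandin E2 and prostaglandin D2. Ptger2 and Ptger4 encode the prostaglandin E2 receptors EP2 and EP4. Alox5, Alox5ap and Ltc4s encode 5-lipoxygenase, its activating protein FLAP and leukotriene C4 synthase.

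Both families start from arachidonic acid that phospholipases release from membranes. Cyclooxygenases turn it into prostaglandin H2, which terminal synthases convert to prostaglandin E2, D2, prostacyclin or thromboxane. 5-lipoxygenase, with FLAP presenting the substrate at the nuclear envelope, makes leukotriene A4, from which leukotriene C4 synthase makes the first of the cysteinyl leukotrienes. COX-1 is usually made constitutively and COX-2 on inflammatory stimulation, IL-1 included. In tumours, prostaglandin E2 acting through EP2 and EP4 is known to restrain lymphocytes and to alter myeloid cells.

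HER2+ H605 mammary tumour cells were injected and grown in the mammary pad of FVB/NJ mice aged 6 to 8 weeks. The hosts were either wild type (WT, 2 tumours) or lacked the interleukin-1 alpha gene (Il1a-/-, 2 tumours), and the injected line was the same in all 4. Tumours were taken on day 14, as pairs on separate days, digested, enriched for live cells and profiled with 10x 3' chemistry, which counts each captured transcript once by its unique molecular identifier (UMI). The labels do not say whether a library pools animals, and p-values measure only the spread between these tumours.

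The 4 libraries held 6705368 to 29001333 UMIs and gave 14127 called cells, 3130 to 3878 per tumour. Both Il1a-/- libraries were shallower than both WT libraries: the median UMIs per cell were 3093 and 4160 in WT and 1348 and 2883.5 in Il1a-/-. Libraries shared 0 to 5 cell barcodes per pair. Il1a itself had 65 and 109 UMIs in the WT tumours and 1 and 0 in the Il1a-/- tumours, with 62 and 83 of the WT UMIs in phagocytes. The deleted stretch of the gene is not given in the sources used here, so whether these 3' tags lie inside it is not known. The human counterparts of the 9 genes, which the mixed reference also holds, had 0 UMIs in every library.

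Cells were grouped by clustering without the 9 genes and named by marker genes. The classes were mononuclear phagocyte-like (1686 cells), T/NK-like (7828), fibroblast-like (978), tumour epithelial-like (735), plasmacytoid dendritic-like (463), mast/basophil-like (27), conventional dendritic-like (301), B/plasma-like (76) and neutrophil-like (115), and 1918 cells stayed unnamed. Tumour epithelial-like cells came almost wholly from the WT libraries, with 447 and 256 cells against 29 and 3. Levels below are CPM, that is UMIs of the gene per 1000000 UMIs of the same cells, and a 3' UMI count does not scale with transcript length. Log2 fold changes are Il1a-/- over WT from edgeR's quasi-likelihood test on UMI sums per tumour, adjusted by Benjamini-Hochberg over all genes tested. Comparisons between cell classes are descriptions with no test.

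**Figure D1:**
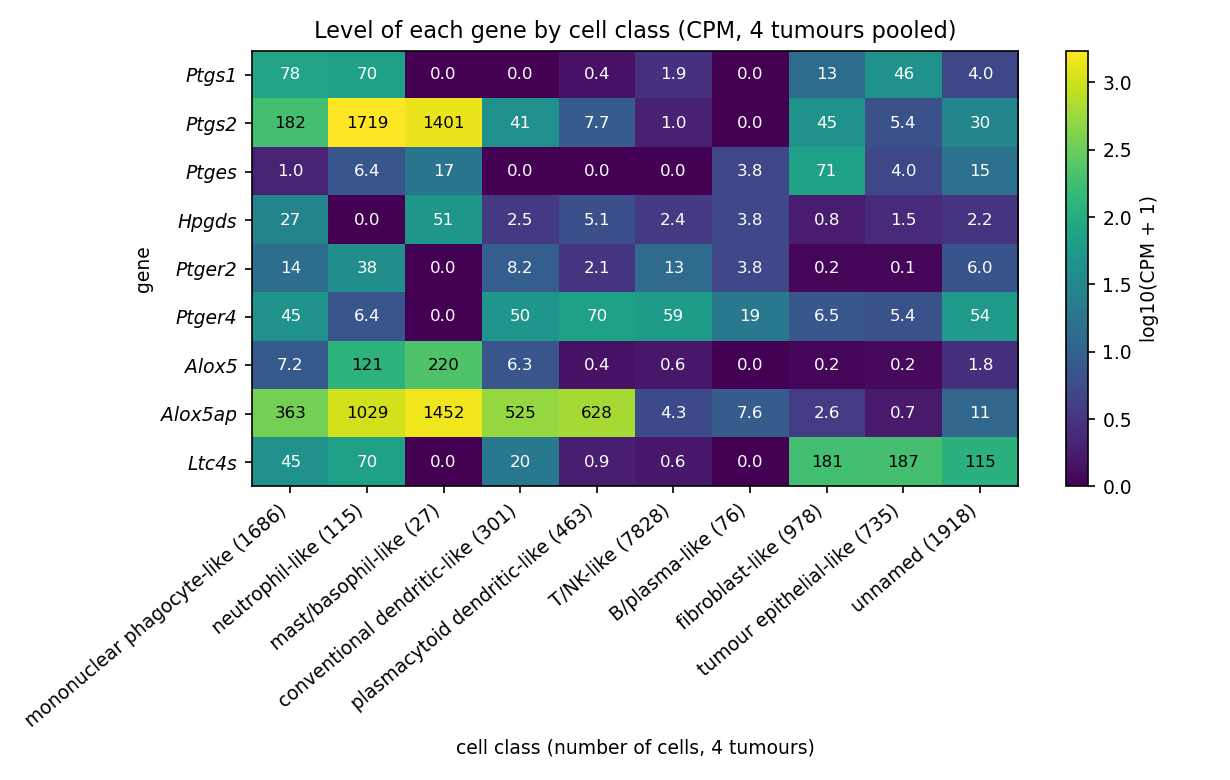
Level of the 9 genes (rows) in each cell class (columns, number of cells in brackets), in CPM pooled over the 4 tumours, with colour on a log10(CPM + 1) scale. Ptges peaked in fibroblast-like cells at 70.7 CPM, Ptgs2 in neutrophil-like cells at 1719 CPM, and Ltc4s in tumour epithelial-like and fibroblast-like cells at 187 and 181 CPM.

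Phagocyte-like cells held the largest share of both cyclooxygenases, and the genes differed in where the rest lay. Ptgs1 had 1224 UMIs, of which phagocyte-like cells held 49.7% (exact 95% interval 46.8 to 52.5%, counting error only) and tumour epithelial-like cells 36.4% (33.7 to 39.2%), though these classes made up 11.9% and 5.2% of cells. Ptgs2 had 2397 UMIs, of which phagocyte-like cells held 59.6% (57.6 to 61.5%) and fibroblast-like cells 12.1% (10.8 to 13.4%). The highest Ptgs2 levels were in 2 small classes, at 1719 CPM in neutrophil-like and 1401 CPM in mast/basophil-like cells, against 182 CPM in phagocyte-like, 44.6 CPM in fibroblast-like and 5.41 CPM in tumour epithelial-like cells. In tumour epithelial-like cells Ptgs1 was therefore the main cyclooxygenase transcript, with 45.5 CPM.

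The neutrophil-like Ptgs2 level differed widely between tumours. It was 2668 and 1487 CPM in WT from 33 and 67 cells, and 1320 and 168 CPM in Il1a-/- from 6 and 9 cells, which rest on 6 and 2 UMIs. With so few cells no genotype comparison was made in that class. A second, unnamed cluster of 118 cells led by Retnlg also carried Ptgs2, at 458 CPM, but 56 of its 61 UMIs came from WT replicate 1.

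Within phagocytes the pooled levels of the isoenzymes differed between the marker-defined states in opposite directions. Ptgs1 was 113 CPM in macrophage-like and 6.37 CPM in monocyte-like cells, while Ptgs2 was 72.4 and 294 CPM. In single tumours, macrophage-like Ptgs1 was 188 and 82.2 CPM in WT and 0 and 52.1 CPM in Il1a-/-. The value of 0 comes from 35 cells, where a count of 0 still allows 35.5 CPM. Monocyte-like Ptgs1 lay between 0 and 9.14 CPM in the 4 tumours, and monocyte-like Ptgs2 between 138 and 456.5 CPM, so the order of Ptgs2 above Ptgs1 in monocyte-like cells held in every tumour.

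The counts of the 2 isoenzymes in the same cells give a ratio that does not depend on library depth. Per Ptgs1 UMI, phagocyte-like cells had 1.02 and 1.68 Ptgs2 UMIs in WT and 18.5 and 7.39 in Il1a-/-. The Il1a-/- replicate 1 ratio rests on 4 Ptgs1 UMIs, and Ptgs2 made up 94.9% (87.4 to 98.6%) of the pair there, against 50.4% (46.0 to 54.8%) and 62.7% (59.0 to 66.3%) in WT. In macrophage-like cells the ratio was 0.233 and 0.822 in WT and 2.81 in Il1a-/- replicate 2. Among monocyte-like cells it was 62.5 and 37.5 in WT and 34.0 in Il1a-/- replicate 2.

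To set the isoenzymes side by side, the 250 bases before each annotated start site are shown (RefSeq, GRCm38.p6, plus strand for both). Capitals mark any of 4 motifs searched on both strands, which did not overlap here: TATAAA (the TATA box), CGTCA (a cyclic AMP response half-site), CACGTG (an E-box) and GGGCGG (a GC box). The windows are 2:36230176-36230425 for Ptgs1 and 1:150099781-150100030 for Ptgs2.
Ptgs1: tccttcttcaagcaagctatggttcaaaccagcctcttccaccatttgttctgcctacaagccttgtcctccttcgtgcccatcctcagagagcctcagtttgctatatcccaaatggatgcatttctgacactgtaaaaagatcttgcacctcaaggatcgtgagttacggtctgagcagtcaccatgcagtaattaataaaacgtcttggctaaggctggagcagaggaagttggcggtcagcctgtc
Ptgs2: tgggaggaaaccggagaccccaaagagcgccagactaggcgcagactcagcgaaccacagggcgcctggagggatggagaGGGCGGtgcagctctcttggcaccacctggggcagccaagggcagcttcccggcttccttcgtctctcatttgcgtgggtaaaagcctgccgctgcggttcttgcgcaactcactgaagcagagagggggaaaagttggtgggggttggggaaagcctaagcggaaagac
The Ptgs2 window held 1 GC box and the Ptgs1 window none of the 4 motifs. Bases after the annotated start site were not searched, so a motif missing from a window may still lie just outside it. Among 32851 promoter windows of this length, 32.7% held a GC box, 17.8% CGTCA, 12.4% TATAAA and 6.02% CACGTG. A match is a description of letters, not a binding site. Ptgs1 lies on chromosome 2 (36230426 to 36252272, plus strand) and Ptgs2 on chromosome 1 (150100031 to 150108227, plus strand).

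Host genotype was compared in phagocyte-like cells to ask whether host interleukin-1 alpha moves these genes. Of the 9 genes, 7 passed the filter on low counts there and 0 passed the adjusted threshold of 0.05, where 0.0891% of 8977 genes did (8 genes by edgeR, 98 by DESeq2). At an unadjusted p below 0.05 stood 1255 of all genes, among them Ptgs1, Ptgs2 and Hpgds. After the scaling used in the fit, the groups did not overlap for 4 of the 7, Ptgs1, Ptgs2, Hpgds and Ptger4, and for 47.8% of all genes tested. For Ptger4 the unscaled groups overlapped.

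Ptgs2 in phagocyte-like cells had 259 and 437 UMIs in WT and 74 and 658 in Il1a-/-, or 130.5 and 116 CPM against 214.5 and 377 CPM. Both Il1a-/- tumours were above both WT tumours, with a log2 fold change of 1.34 (SE 0.31, edgeR adjusted p = 0.135, n = 2 per group). DESeq2 gave an adjusted p of 0.0227, and edgeR without Il1a-/- replicate 1 gave 0.00686. The adjusted p ranged from 7.64e-05 to 0.785 over all settings tried.

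The Ptgs2 difference in phagocytes sat largely in sub-clusters that came from 1 library each. One of 149 cells, with Ero1l, Hilpda and Egln3 among its leading genes, had 644 CPM of Ptgs2 and held 126 cells of Il1a-/- replicate 2 and 5, 17 and 1 cells of the others. It carried 67.8% of that tumour's phagocyte Ptgs2 UMIs. Another of 70 cells, led by Ly6i and Cxcl9, had 269.5 CPM, and 63 of its cells were from Il1a-/- replicate 1, where it carried 55.4% of the Ptgs2 UMIs.

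Without these 2 sub-clusters Ptgs2 was 131 and 107.5 CPM in WT and 57.8 and 192 CPM in Il1a-/-, so that the groups overlapped. The log2 fold change was then 0.29 (edgeR adjusted p = 0.785). Leaving them out was chosen after their composition was seen. Whether they are states of the host genotype or of single tumours cannot be told apart.

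Ptgs1 in phagocyte-like cells had 255 and 260 UMIs in WT and 4 and 89 in Il1a-/-, or 128.5 and 69.2 CPM against 11.6 and 51.0 CPM. Both Il1a-/- tumours lay below both WT tumours. The log2 fold change was -1.27 (SE 0.49, edgeR adjusted p = 0.314, n = 2 per group), and without the low-count filter the adjusted p was 0.000771, in a range of 0.000771 to 0.796. Without that filter far more of all genes passed as well. The macrophage marker list, of which all 10 genes were seen in the class, summed to 20560 and 11380 CPM in WT and 5911 and 7126 CPM in Il1a-/-. The monocyte list, 6 of 6 genes seen, summed to 1798 and 3207 CPM in WT and 3232 and 9518 CPM in Il1a-/-. There were 194 and 203 macrophage-like cells in the WT tumours against 35 and 130 in the Il1a-/- tumours. As shares of the phagocyte-like cells, these were 48.4 and 28.6% in WT and 21.3 and 31.6% in Il1a-/-, so the genotypes overlapped under the naming rule used. Monocyte-like shares, 21.2 and 13.1% in WT and 25.6 and 18.0% in Il1a-/-, overlapped too. A sub-cluster of 258 cells led by Rnase2a and Retnla stayed unnamed for its few UMIs. Its mean relative level of the macrophage list was 0.51, against 0.061 for the monocyte list. It held 39 and 185 cells in WT and 4 and 30 in Il1a-/-. Counted as macrophage-like, it would set the macrophage-like shares of the genotypes apart. The part of cell make-up in the Ptgs1 and Ptgs2 differences was not tested.

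**Figure D2:**
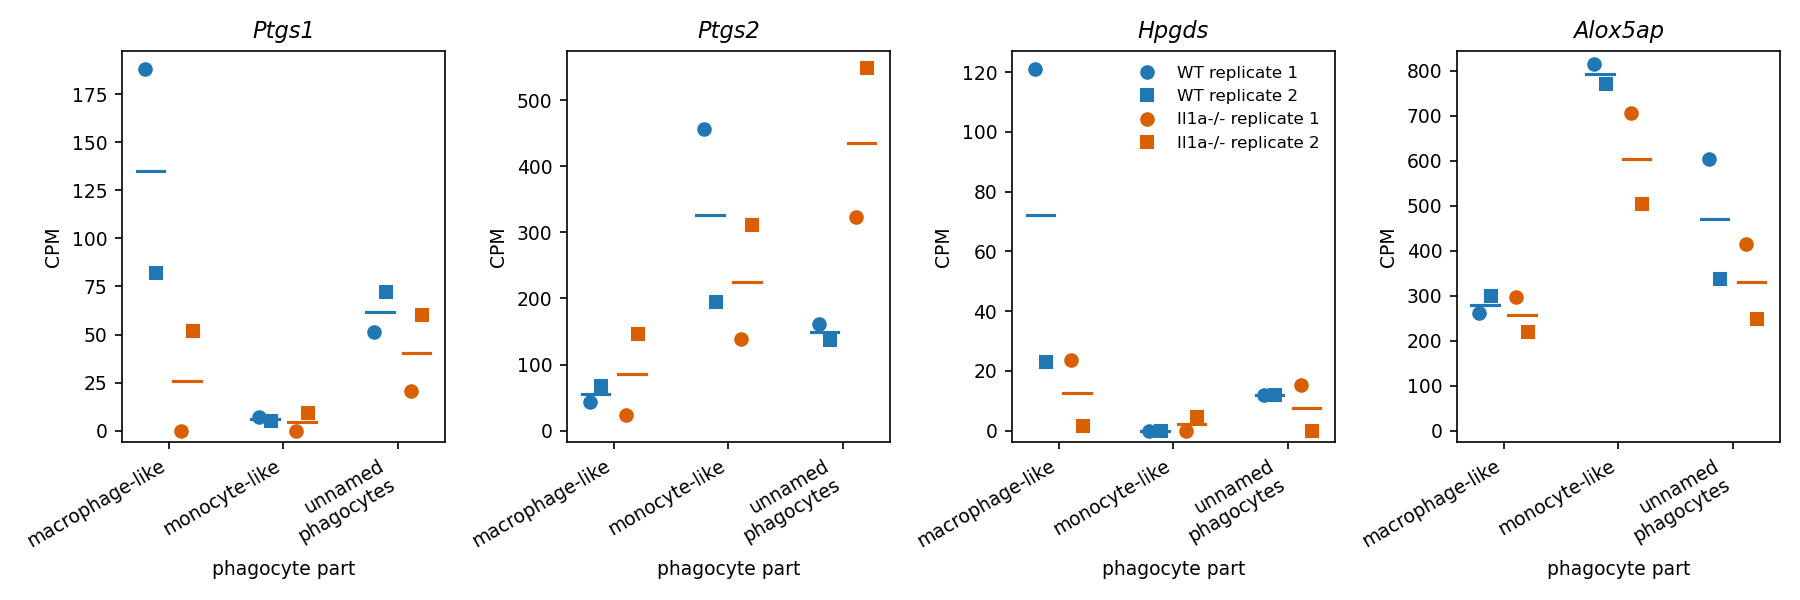
Level in CPM (vertical axes) of Ptgs1, Ptgs2, Hpgds and Alox5ap in macrophage-like, monocyte-like and remaining unnamed phagocytes. Each point is 1 tumour, short lines are means of 2 tumours, blue is WT and orange Il1a-/-. Pooled over tumours, Ptgs1 and Hpgds were higher in macrophage-like cells (112.8 and 54.5 CPM) and Alox5ap and Ptgs2 in monocyte-like cells (716 and 294 CPM), and unnamed Il1a-/- phagocytes had 323 and 549 CPM of Ptgs2.

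Over all called cells Ptgs1 had 573 and 511 UMIs in WT and 27 and 113 in Il1a-/-, or 30.4 and 21.0 CPM against 4.93 and 8.55 CPM. The groups did not overlap, and the log2 fold change was -1.80 (SE 0.34, edgeR adjusted p = 0.0613). With the replicate number as a block it was 0.0452 and by DESeq2 0.000409, in a range over settings of 0.000409 to 0.172. Of the 14028 genes tested in this sum 1.1% passed in the main edgeR fit. Far more passed with the block and by DESeq2, as counted in the last section. In such a sum fewer cells of a type and less RNA per cell cannot be told apart, and Ptgs1-rich tumour epithelial-like cells were nearly all from WT tumours. Without them, a choice made after seeing the data, Ptgs1 was 24.0 and 15.7 CPM in WT and 4.53 and 8.55 CPM in Il1a-/-, and the groups were still apart (log2 fold change -1.498, edgeR adjusted p = 0.172). Over all cells the scaled groups did not overlap for 6 of the 9 genes and for 61.9% of all genes.

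In fibroblast-like cells neither cyclooxygenase gave groups that were apart. Ptgs2 was 71.3 and 27.6 CPM in WT and 81.2 and 15.1 CPM in Il1a-/- (log2 fold change -0.13, SE 0.78, edgeR adjusted p = 0.988). Replicate 1 of each genotype was the higher. Ptgs1 was 24.9 and 7.03 CPM in WT and 21.7 and 1.68 CPM in Il1a-/-, with the same order of replicates. In T/NK-like cells Ptgs2 had 5 to 9 UMIs per tumour, and it was not tested.

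Among the terminal synthases, Ptges was a fibroblast transcript in these tumours. It encodes the inducible microsomal prostaglandin E synthase (chromosome 2, 30889471 to 30929863, minus strand, GRCm38). Fibroblast-like cells were 6.92% of cells and held 77.2% of its 593 UMIs (exact 95% interval 73.6 to 80.6%). Another 14.2% (11.5 to 17.2%) lay in unnamed cells, all 84 UMIs of them in a cluster of 185 cells led by Timp1, Tagln, Col12a1 and Acta2, in which 6 of 6 fibroblast markers were detected. Phagocyte-like cells, which held most Ptgs2, had 8 Ptges UMIs in all.

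The fibroblast Ptges level was even across tumours. It was 76.4 and 57.9 CPM in WT and 75.5 and 75.4 CPM in Il1a-/-, on 150, 107, 66 and 135 UMIs. The log2 fold change was 0.17 (SE 0.25, edgeR adjusted p = 0.937), and the WT range enclosed both Il1a-/- values. Of 978 fibroblast-like cells, 91 had a Ptgs2 UMI, 304 a Ptges UMI and 40 both. Ptges was seen in 44.0% of cells with Ptgs2 and in 29.8% of those without, but the former were deeper, with a median of 7851 against 4922 UMIs.

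Hpgds, the hematopoietic prostaglandin D synthase (chromosome 6, 65117293 to 65144908, minus strand), was found mainly in phagocytes and differed widely between tumours. Phagocyte-like cells held 64.4% (59.0 to 69.5%) of its 334 UMIs, with 54.5 CPM in macrophage-like and 1.06 CPM in monocyte-like cells. WT replicate 1 supplied 146 macrophage-like UMIs, and without it the levels were 16.9 and 1.495 CPM. By tumour, macrophage-like Hpgds was 121 and 23.0 CPM in WT and 23.7 and 1.63 CPM in Il1a-/-, so the genotypes overlapped there. Monocyte-like cells had 0 UMIs in 3 tumours and 1 UMI (4.57 CPM) in Il1a-/- replicate 2. The macrophage-like value of that tumour also rests on 1 UMI, so no order of the states can be read there. Phagocyte-like cells had 152 and 56 UMIs in WT and 5 and 2 in Il1a-/-, or 76.6 and 14.9 CPM against 14.5 and 1.15 CPM. The groups were apart only by the small gap between WT replicate 2 and Il1a-/- replicate 1.

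The log2 fold change of Hpgds was -3.49 (SE 1.17, edgeR adjusted p = 0.256, n = 2 per group). With the replicate number as a block it was -2.86 with an adjusted p of 0.0166, and over settings the adjusted p ran from 1.42e-11 to 0.89. With the block more of all genes passed than in the main fit, as counted in the last section. The Hpgds genotype difference in phagocyte-like minus that in T/NK-like cells was -2.98 log2 and did not pass (SE 0.82, edgeR adjusted p = 0.167, where 0.501% of 11173 genes passed). WT replicate 1 supplied 112 of the 127 Hpgds UMIs of the proliferating macrophage-like sub-cluster led by Ube2c and Top2a. That sub-cluster, with 122 CPM, had 93 cells from WT replicate 1 and 21, 2 and 5 from the other tumours.

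Ptgs1 and Hpgds were seen together in a part of the phagocytes. Of 332 phagocyte-like cells with a Ptgs1 UMI 74, or 22.3%, also had Hpgds, against 3.32% of those without, and Ltc4s was seen in 23.2% against 4.58%. Depth differed here too, with a median of 6813 UMIs in cells with Ptgs1 and 2920 in those without. For Ptgs1 and Ptgs2 the shares were 19.6% and 17.8%, although the same difference in depth applied. The 93 cells of WT replicate 1 in the Ube2c-led sub-cluster gave 151 of 608 phagocyte-like Ptgs1 UMIs and 112 of 215 Hpgds UMIs.

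Of the prostaglandin E2 receptors, Ptger4 was the more abundant and was shared by lymphoid and myeloid cells. The gene lies on chromosome 15 (5206661 to 5244187, minus strand) and Ptger2 on chromosome 14 (44988195 to 45003820, plus strand). Ptger4 had 2650 UMIs, with 69.6 CPM in plasmacytoid dendritic-like, 59.4 CPM in T/NK-like, 49.8 CPM in conventional dendritic-like and 45.3 CPM in phagocyte-like cells, against 6.48 CPM in fibroblast-like and 5.41 CPM in tumour epithelial-like cells. The tumours' ranges overlapped between neighbouring immune classes, 46.5 to 105.5 CPM in plasmacytoid dendritic-like and 34.2 to 95.9 CPM in T/NK-like cells. Ptger2 had 518 UMIs, of which T/NK-like cells held 67.8% (63.5 to 71.8%) and phagocyte-like cells 20.7% (17.2 to 24.4%).

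Within the lymphocytes both receptors were highest in the same 2 of the 9 clusters. In the cluster led by Il13, Ccl1, Il1rl1 and Il4, genes of type 2 lymphocytes, Ptger4 was 103 CPM and Ptger2 34.8 CPM. In the cluster led by Tnfrsf4, Foxp3 and Ikzf2, genes of regulatory T cells, they were 95.5 and 22.7 CPM. The cluster led by Gzma, Cma1, Prf1 and Gzmb, genes of cytotoxic cells, had 54.4 CPM of Ptger4, and that led by Trdc and Tcrg-C4, constant chains of the gamma-delta receptor, 32.2 CPM. Of 315 T/NK-like cells with a Ptger2 UMI 27.3% had Ptger4, against 14.9% of the others, with median depths of 4388 and 2596 UMIs.

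Ptger4 was lower in the T/NK-like sums of Il1a-/- hosts and was the only one of the 9 genes past the threshold in any comparison. T/NK-like cells had 637 and 583 UMIs in WT and 113 and 322 in Il1a-/-, or 95.9 and 58.2 CPM against 34.2 and 40.9 CPM. Both Il1a-/- tumours were below both WT tumours. The log2 fold change was -0.97 (SE 0.23, edgeR adjusted p = 0.0470, n = 2 per group). Here 5 of the 9 genes were tested, and 5.97% of 10952 genes passed, 2.55% as lower. Groups did not overlap for 2 of the 5, Ptger4 and Alox5ap, and for 56.7% of all genes.

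The Ptger4 call lay near the threshold. Across settings its log2 fold change stayed between -1.28 and -0.60 while the adjusted p ran from 1.08e-05 to 0.280. It was lost without WT replicate 1 (log2 fold change -0.60, adjusted p = 0.280), with at least 1000 UMIs per cell (0.0616), with at most 10% mitochondrial UMIs (0.0510) and with a per-cell marker gate (0.0715). With the replicate number as a block it was 0.0220.

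A pair of T/NK-like clusters was itself split by genotype. The cluster led by Xcl1, Ncr1, Gzmc and Eomes had 526 and 602 cells in WT and 41 and 4 in Il1a-/-, with 63.8 CPM of Ptger4. The cluster led by Ccl5, Ifitm1, Cd8b1 and Cd8a had 24 and 45 cells in WT and 879 and 637 in Il1a-/-, with 52.9 CPM. Without both, the log2 fold change of Ptger4 was -1.19 (edgeR adjusted p = 0.0519), and with the unnamed cluster led by S1pr1, Tcf7 and Lef1 added it was -0.88 (adjusted p = 0.0651). These cluster choices were made after seeing the data. The Foxp3 cluster, among the 2 highest in Ptger4, held 315 of 1783 and 276 of 1862 T/NK-like cells in WT. In Il1a-/- it held 72 of 2125 and 143 of 2058. The part of cell make-up in the Ptger4 difference was not tested.

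Of 9 T/NK-like clusters, 7 had at least 20 cells in every tumour. In 5 of the 7 both Il1a-/- values of Ptger4 were below both WT values, and in 0 were both above. These clusters come from the same 4 tumours and are not separate replicates, and this count was not made for other genes. Some values rest on few UMIs (4, 19, 5 and 11 in the cluster led by Gzma and Cma1). The WT values of the genotype-split cluster led by Ccl5 and Ifitm1 rest on 12 and 12 UMIs. In the cluster led by Trdc the gap was small, with 23.5 CPM in WT replicate 2 and 21.05 CPM in Il1a-/- replicate 2. In the type 2 cluster Ptger4 was 146 and 112 CPM in WT and 11.1 and 57.5 CPM in Il1a-/-, on 132, 172, 2 and 46 UMIs. In the Foxp3 cluster it was 150 and 69.3 CPM in WT and 109 and 52.3 CPM in Il1a-/-, where the groups overlapped.

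The share of T/NK-like cells with a Ptger4 UMI was 24.7 and 20.9% in WT and 4.94 and 12.97% in Il1a-/-. After every cell was thinned to 1000 UMIs, with shallower cells left out, it was 10.0 and 6.46% in WT and 2.74 and 4.68% in Il1a-/-. In tumour epithelial-like cells, the class of over 100 cells with the lowest level, the thinned share was 0 and 1.44% in WT. The coding gene Ttc33 overlaps Ptger4 on the opposite strand, and whether the counting used strand is not stated. Its T/NK-like level was 26.5 and 22.6 CPM in WT and 21.8 and 18.4 CPM in Il1a-/-.

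**Figure D3:**
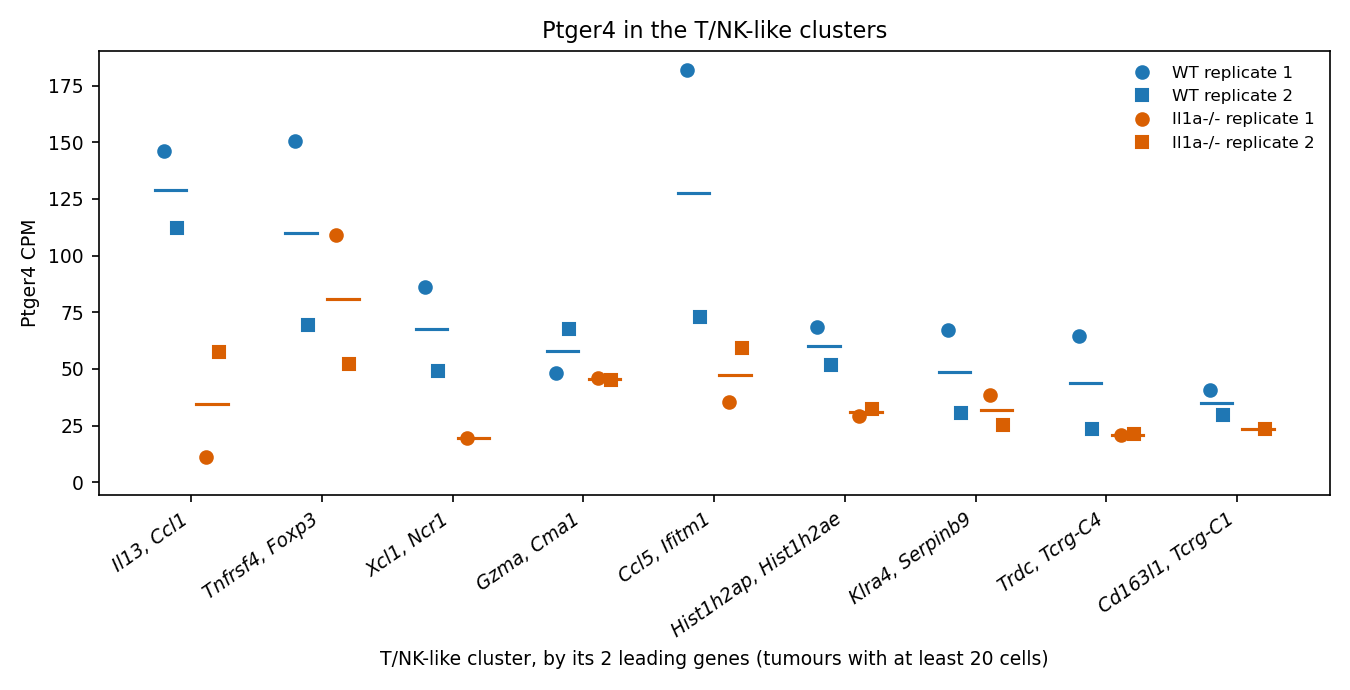
Ptger4 level in CPM (vertical axis) in each T/NK-like cluster (horizontal axis, named by its 2 leading genes, ordered by pooled level). Each point is 1 tumour with at least 20 cells in the cluster, short lines are means, blue is WT and orange Il1a-/-. In 5 of the 7 clusters seen in all 4 tumours, both Il1a-/- points lie below both WT points. The clusters come from the same 4 tumours and are not separate replicates.

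In the other classes the Ptger4 difference did not pass. Phagocyte-like cells had 62.5 and 42.8 CPM in WT and 43.5 and 31.5 CPM in Il1a-/- (log2 fold change -0.52, SE 0.28, edgeR adjusted p = 0.447). In conventional dendritic-like cells it was 76.1 and 49.9 CPM in WT and 53.8 and 14.5 CPM in Il1a-/-, on 34, 35, 5 and 5 UMIs (log2 fold change -1.27, adjusted p = 0.516). Without Il1a-/- replicate 1 the latter was 0.0494. Plasmacytoid dendritic-like cells went the other way, with 73.56 and 46.5 CPM in WT and 105.5 and 73.54 CPM in Il1a-/- (log2 fold change 0.52, SE 0.31, adjusted p = 0.464). WT replicate 1 and Il1a-/- replicate 2 were equal to within rounding there (73.56 and 73.54 CPM), so that the groups met in CPM and were apart only after the scaling used in the fit. The test of the difference between phagocyte-like and T/NK-like cells did not pass for Ptger4 (0.35 log2, SE 0.28, edgeR adjusted p = 0.749).

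Ptger2 in T/NK-like cells had 93 and 108 UMIs in WT and 48 and 102 in Il1a-/-, all between 10.8 and 14.5 CPM, and the groups overlapped (log2 fold change 0.19, SE 0.22, edgeR adjusted p = 0.640). Whether its difference between genotypes differs from that of Ptger4 was not tested. In phagocyte-like cells it was 13.6 and 13.04 CPM in WT and 2.90 and 17.2 CPM in Il1a-/-, the lowest value resting on 1 UMI. An annotated antisense gene, Gm17173, covers Ptger2, and it had 93 UMIs in T/NK-like cells against 351 of Ptger2.

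**Figure D4:**
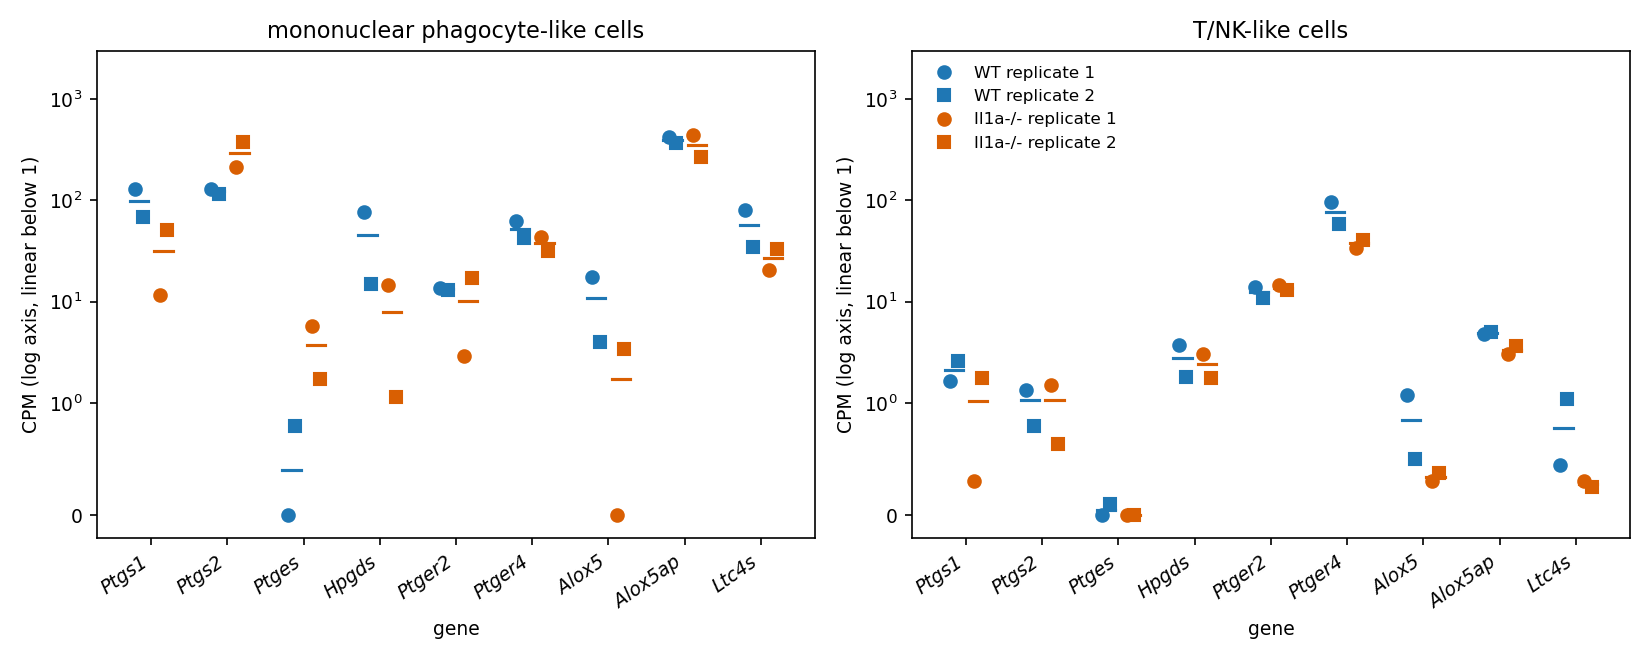
Level in CPM (vertical axis, logarithmic and linear below 1) of the 9 genes in phagocyte-like cells (left) and T/NK-like cells (right). Each point is 1 tumour, short lines are means of 2 tumours, blue is WT and orange Il1a-/-. In T/NK-like cells the Il1a-/- tumours had 34.2 and 40.9 CPM of Ptger4 against 95.9 and 58.2 CPM in WT.

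On the leukotriene side, Alox5ap was abundant in myeloid cells and Alox5 was scarce. Alox5ap lies on chromosome 5 (149264767 to 149288153, plus strand), Alox5 on chromosome 6 (116410077 to 116461178, minus strand) and Ltc4s on chromosome 11 (50236461 to 50238616, minus strand). Alox5ap had 5600 UMIs, with 1452 CPM in mast/basophil-like, 1029 CPM in neutrophil-like, 628 CPM in plasmacytoid dendritic-like, 525 CPM in conventional dendritic-like and 363 CPM in phagocyte-like cells. In T/NK-like cells it was 4.34 CPM and in tumour epithelial-like cells 0.714 CPM. Alox5 had 129 UMIs in all, with 219.5 CPM in mast/basophil-like, 121 CPM in neutrophil-like and 7.15 CPM in phagocyte-like cells. The first 2 of these levels rest on 13 and 19 UMIs.

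Plasmacytoid dendritic-like cells combined high Alox5ap with almost no Alox5. They had 1472 Alox5ap UMIs and 1 Alox5 UMI, in a class of 463 cells. In neutrophil-like cells the counts were 161 and 19, in phagocyte-like cells 2842 and 56, and in conventional dendritic-like cells 833 and 10. A phagocyte sub-cluster of 82 cells led by Lyz1 and Fcrls had 381 and 0, so the pattern was not confined to this class. The plasmacytoid dendritic-like Alox5ap level varied little between tumours, with 659 and 657 CPM in WT and 536 and 567 CPM in Il1a-/-. The Il1a-/- values were both lower, with a log2 fold change of -0.23 (SE 0.19, edgeR adjusted p = 0.636). In that class 2.17% of 5906 genes passed, and the scaled groups did not overlap for either of the 2 members tested, Ptger4 and Alox5ap, or for 45.9% of all genes.

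Alox5ap in phagocyte-like cells was 424 and 367 CPM in WT and 441 and 269 CPM in Il1a-/- and did not separate the groups (log2 fold change -0.16, SE 0.25, edgeR adjusted p = 0.802). Monocyte-like cells had 716 CPM and macrophage-like cells 270 CPM. Monocyte-like levels were 814 and 769.5 CPM in WT and 705 and 503 CPM in Il1a-/-. Conventional dendritic-like cells had 584 and 519 CPM in WT and 473 and 475 CPM in Il1a-/- (log2 fold change -0.16, adjusted p = 0.912). In that class 0.128% of 4698 genes passed. After the scaling used in the fit, the groups overlapped for all 3 members tested, while they did not for 40.7% of all genes. Unscaled, the Alox5ap groups were apart.

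Alox5 was not tested in any class, as it did not pass the filter on low counts. Phagocyte-like cells had 35 and 15 UMIs in WT and 0 and 6 in Il1a-/-, or 17.6 and 3.99 CPM against 0 and 3.44 CPM. A count of 0 in the 164 cells of Il1a-/- replicate 1 allows up to 8.70 CPM. Over all cells Alox5 was 3.61 and 1.69 CPM in WT and 0.730 and 1.21 CPM in Il1a-/- (log2 fold change -1.27, SE 0.56, edgeR adjusted p = 0.211).

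Ltc4s lay mostly outside the named immune classes. Tumour epithelial-like cells held 45.3% (43.7 to 46.8%) of its 4059 UMIs, fibroblast-like cells 28.9% (27.6 to 30.4%) and unnamed cells 15.6% (14.5 to 16.7%). The order rests on WT replicate 2, which gave 1633 of the tumour epithelial-like UMIs: without it that class held 11.6% (10.2 to 13.2%) and fibroblast-like cells 56.2% (53.9 to 58.6%). Nearly all of the unnamed UMIs were the 630 UMIs of the cluster led by Timp1 and Tagln, which had the highest level of the clusters of over 100 cells, 426 CPM. Mast/basophil-like cells, a textbook source of leukotriene C4, had 0 Ltc4s UMIs among 27 cells, which in the library with most of them allows up to 96.1 CPM. Phagocyte-like cells had 45.1 CPM, with 61.7 CPM in macrophage-like and 2.12 CPM in monocyte-like cells. The enzymes upstream were scarce where Ltc4s was high: fibroblast-like cells had 1 Alox5 and 17 Alox5ap UMIs, and tumour epithelial-like cells had 2 and 7.

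The tumour epithelial-like level of Ltc4s differed between the WT tumours. It had 195 UMIs (37.8 CPM) in WT replicate 1 and 1633 UMIs (366 CPM) in WT replicate 2, whereas Ptgs1 in the same cells was 47.3 and 44.6 CPM. Within the cluster led by Lcn2, Csn3, Wfdc18 and Epcam alone the Ltc4s values were 40.3 and 366 CPM. The share of cells with an Ltc4s UMI was 8.95 and 42.6%, or 2.58 and 18.8% at 1000 UMIs per cell. The 29 cells of Il1a-/- replicate 1 had 0 UMIs, which allows up to 17.2 CPM, while the 3 cells of Il1a-/- replicate 2 had 9 UMIs (2034 CPM), all in 1 cell.

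In fibroblast-like cells Ltc4s was 140.5 and 103 CPM in WT and 346.5 and 227 CPM in Il1a-/-, on 276, 190, 303 and 406 UMIs. Both Il1a-/- tumours were above both WT tumours. At 1.23 on the log2 scale (SE 0.32) the difference missed the threshold, with an unadjusted edgeR p of 0.00838 and an adjusted p of 0.886. Of 9681 genes 0% passed by edgeR (9 by DESeq2), and 480 had an unadjusted p below 0.05. Groups did not overlap for 1 of the 5 members tested, Ltc4s, and for 36.2% of all genes.

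The thinned share of fibroblast-like cells with an Ltc4s UMI was 11.9 and 5.93% in WT and 28.3 and 12.7% in Il1a-/-. At equal depth the groups were thus apart only by the small gap between WT replicate 1 and Il1a-/- replicate 2. In the Timp1-led cluster the level was 600 and 334 CPM in WT and 612 CPM in Il1a-/- replicate 2. In phagocyte-like cells it was 80.1 and 34.3 CPM in WT and 20.3 and 33.2 CPM in Il1a-/- (log2 fold change -0.85, SE 0.44, adjusted p = 0.434). The genotype difference in phagocytes minus that in fibroblasts was -1.96 log2 (SE 0.46, edgeR adjusted p = 0.447, where 0% of 10943 genes passed). The antisense gene Gm26542, which overlaps Ltc4s, had 4 UMIs in fibroblast-like cells.

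**Figure D5:**
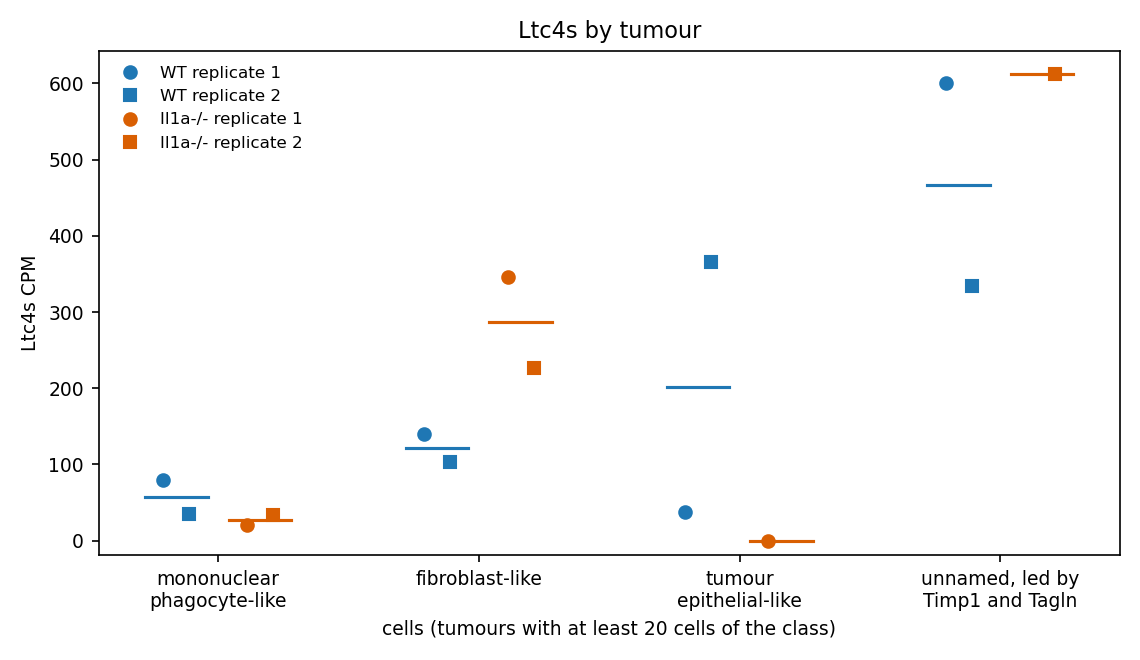
Ltc4s level in CPM (vertical axis) in 3 named classes and in the unnamed cluster led by Timp1 and Tagln. Each point is 1 tumour with at least 20 cells of the class, short lines are means, blue is WT and orange Il1a-/-. Fibroblast-like cells had 346.5 and 227 CPM in Il1a-/- and 140.5 and 103 CPM in WT, and tumour epithelial-like cells 37.8 and 366 CPM in the WT tumours.

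Free RNA held all 9 genes, and was measured beside the class levels. In barcodes of at most 100 UMIs, which hold free RNA, Alox5ap was 116 CPM, Ptgs2 69.8, Ltc4s 58.1, Ptger4 34.1, Ptgs1 19.5, Alox5 13.9, Ptges 9.45, Hpgds 8.49 and Ptger2 5.60 CPM. In the class of over 100 cells where each gene was lowest, its level was 0 to 15.9% of that. The highest of these was Ptger4 in tumour epithelial-like cells, and Alox5ap there was at 0.615% of its free level.

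The genes most alike in pattern, by Pearson correlation of log2(CPM + 10) over 27 class-by-tumour sums, give the company of each gene. These sums share libraries, depth and cell types, so r is a description. Ptges went with Tnfaip6 (r = 0.99) and Gpc3 (0.99), Alox5 with Siglece (0.98) and F630028O10Rik (0.97), Alox5ap with Csf2rb (0.97) and Gpr35 (0.96), and Ptgs2 with Pygl (0.93) and Tlr2 (0.93). Alox5 stood out only in the neutrophil-like sums of the WT tumours, at 112 and 94.3 CPM on 5 and 9 UMIs. In the other sums it was at most 17.6 CPM. Hpgds went with Adamdec1 (0.82) and Cd163 (0.76), Ptgs1 with Sat1 (0.88) and Pla2g7 (0.85), and Ltc4s with Cd63 (0.88) and Vcan (0.85). Ptger2 was nearest to Cass4 (0.89) and Ostf1 (0.88), and Ptger4 to Uhmk1 (0.87) and Mbnl1 (0.86).

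A list of 39 other eicosanoid genes, of which 38 were in the files, was read beside the 9. In phagocyte-like cells 18 were tested and 0 passed by edgeR. The smallest p-values there belonged to Abcc1, an exporter of leukotriene C4, and Ggt5, which cleaves it to leukotriene D4. Abcc1 was 20.7 and 21.8 CPM in WT and 60.9 and 37.8 CPM in Il1a-/- (log2 fold change 1.12, adjusted p = 0.145), and Ggt5 30.7 and 14.4 CPM against 2.90 and 5.73 CPM (-1.98, adjusted p = 0.198). Next came Akr1b3 (-0.59, adjusted p = 0.347) and Pla2g2d (1.63, adjusted p = 0.350), and the list's median was 0.06 against -0.02 for all genes tested.

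In T/NK-like cells 1 of 18 list genes passed, as lower, a share near the 5.97% of all genes that passed there. Ltb4r1, the high-affinity leukotriene B4 receptor, was 46.5 and 49.9 CPM in WT and 9.07 and 21.2 CPM in Il1a-/- (log2 fold change -1.54, SE 0.31, edgeR adjusted p = 0.0274). The groups were far apart, and the list's median was -0.17 against -0.02 for all genes. Ltb4r1 was among the leading genes of the type 2 cluster. That cluster held 243 of 1783 and 254 of 1862 T/NK-like cells in WT. In Il1a-/- it held 108 of 2125 and 264 of 2058. The part of cell make-up in the Ltb4r1 difference was not tested. In phagocyte-like cells the same receptor was 43.9 and 79.3 CPM in WT and 75.4 and 92.3 CPM in Il1a-/-, and the groups overlapped.

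In fibroblast-like cells 19 list genes were tested, and 7 in each dendritic-like class, with 0 passing by edgeR. In fibroblast-like cells the smallest p-values were those of Abcc1, Cbr1, Ptgr2 and Lta4h. Ptgis and Hpgd, named after their values were seen, were high in fibroblast-like cells. Ptgis, the prostacyclin synthase, was 87.5 CPM there, and Hpgd, the enzyme that inactivates prostaglandins, 155 CPM, with 1005 of its 1035 UMIs in that class.

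Over all cells 2 of 30 list genes passed, both lower, where 0.577% of all genes passed as lower. Slco2a1, the prostaglandin uptake carrier, fell by 3.28 log2 units (edgeR adjusted p = 0.0494), from 42.1 and 29.1 CPM in WT to 4.93 and 2.42 CPM in Il1a-/-. Of its 1560 UMIs 1444 were in tumour epithelial-like cells, which were nearly absent from the Il1a-/- libraries, and where its level was 145 and 151 CPM in WT. Mgst3, a microsomal glutathione transferase, fell by 1.38 (adjusted p = 0.0494), and 685 of its 1163 UMIs were in the same cells.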

How the data were processed

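Single cells from 4 tumours (2 WT and 2 Il1a-/- hosts) were profiled with 10x 3' chemistry. The deposited files hold raw UMI counts per gene and barcode, not normalized, made by the authors with Cell Ranger 3.1.0 on a mixed human and mm10 mouse reference, per the submitters' processing notes and the gene names in the files. Whether counting used strand is not given in the sources used here.

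Barcodes with at least 500 mouse UMIs, 250 genes and at most 20% mitochondrial UMIs were kept, and 83 to 128 likely doublets per library (0.8% per 1000 cells, highest simulated-doublet scores) were removed. No test against empty droplets was run. Cells were clustered with scanpy 1.11.5 (2000 variable genes without the 9 members, 30 principal components, 15 neighbours, Leiden resolution 1). Clusters were named from marker lists by a rule set after seeing the clusters: at least 3 markers detected (50 CPM, 10% of cells and 20% of the highest cluster), at least 2 times the next class, and leading genes not of another class. For phagocyte sub-clusters, the mean relative levels of the macrophage and monocyte lists were compared instead, with a required ratio below 2. Clusters and sub-clusters low in UMIs, with no marker of their own among the leading genes, also stayed unnamed. These rules left 122 and 414 phagocyte-like cells unnamed in WT and 87 and 207 in Il1a-/-. The members, gene lists and tests were chosen with earlier results of these data known. All 9 members are named in each class, with the list genes that passed (otherwise those with the smallest p), and the 2 genes most alike in pattern.

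UMI sums per tumour and class, for classes with 20 cells in every tumour, were tested with edgeR 4.0.16 (filterByExpr, TMM, quasi-likelihood, Benjamini-Hochberg, threshold 0.05) in R 4.3.3, by genotype and, between classes, by interaction. Exact permutation of 2 against 2 tumours cannot go below 0.333, so none was used. Simulated counts had 1 fixed dispersion, 0.05, for every gene and not the spread seen in the data. Recovery at the spread of each gene was not measured. With the phagocyte-like means, 18 of 103 genes changed by 1 log2 unit and 77 of 97 changed by 2 were recovered among 8977. With the T/NK-like means these were 17 of 99 and 86 of 101 among 10952. Intervals are exact binomial at 95%, a count of 0 allows 3 counts, and both cover counting error only. Alternatives were DESeq2 1.42.0, no low-count filter, the replicate number as a block, stricter cell filters, a per-cell marker gate, leaving out each tumour, and 4 cluster choices added after seeing the data. Promoter sequences are RefSeq's for GRCm38.p6 (8 of 9 genes matched). Gene positions are from GENCODE for GRCm38.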

Additional observations from a re-analysis of the deposited data

Results flagged for a closer look

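Ptger4 had fold changes of opposite sign in different classes of the same tumours. Its log2 fold change (Il1a-/- over WT) was 0.515 in plasmacytoid dendritic-like cells, -0.519 in phagocyte-like cells and -0.972 in T/NK-like cells. After scaling the genotypes did not overlap in any of the 3, as for 45.9%, 47.8% and 56.7% of all genes in these classes in turn. Unscaled, they overlapped in plasmacytoid dendritic-like cells (73.56 CPM in a WT and 73.54 CPM in an Il1a-/- tumour) and in phagocyte-like cells (42.8 CPM in a WT and 43.5 CPM in an Il1a-/- tumour). The difference between plasmacytoid dendritic-like cells and either other class was not tested, and only the T/NK-like value passed the adjusted threshold.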

How the results depend on the processing

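Of 199 genotype values of the members under settings that kept all 4 tumours, 180 kept their direction and side of the threshold, 8 newly passed it, 5 no longer passed and 6 changed sign. Of 124 values with 1 tumour left out, 109 kept both and 12 changed sign. Of the differences between classes, 30 of 32 and 50 of 64 kept both. The cause of each change was not tested, except that fewer tumours or cells enter some settings.

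Counts of genes past the threshold moved most. In phagocyte-like cells 8 became 98 (DESeq2), 545 (no filter), 155 (replicate block), 78 (without single-library sub-clusters) and 0 to 238 with 1 tumour left out. In T/NK-like cells 654 became 1676 (no filter), 1533 (block), 110 (without genotype-skewed clusters) and 30 to 1250. In fibroblast-like cells 0 became 9 (DESeq2), 135 (no filter) and 0 to 1. In conventional dendritic-like cells 6 became 83 (no filter), 69 (block), 3 (at least 1000 UMIs) and 11 to 117. In plasmacytoid dendritic-like cells 128 became 55 (DESeq2), 232 (no filter), 336 (block) and 119 to 205. Over all cells 154 became 1811 (DESeq2), 2040 (no filter), 1789 (block), 2 (at least 1000 UMIs), 39 (at most 10% mitochondrial), 5 (without tumour epithelial-like cells) and 0 to 73. Interactions of 56 (T/NK-like) and 0 (fibroblast-like) became 319 and 73 without the filter, and 0 to 195 and 0 to 133 with 1 tumour left out.

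Signs changed for Ptger2 in phagocyte-like cells (-0.090 by DESeq2, -0.25 without single-library sub-clusters, -2.24 to 0.48 with 1 tumour left out), Alox5ap there (0.0065 without those sub-clusters, -0.44 to 0.095), Ptger2 in T/NK-like cells (-0.41 without skewed clusters), Ptgs2 in fibroblast-like cells (0.34 by marker gate, -1.67 to 0.69) and Ltc4s over all cells (0.46 without tumour epithelial-like cells, -0.81 to 0.38). With 1 tumour left out, the ranges that crossed 0 were also Hpgds in T/NK-like cells (-0.66 to 0.36), Ptgs1 and Ptger4 in fibroblast-like cells (-3.17 to 0.49 and -0.42 to 1.75), Ptgs2 in conventional dendritic-like cells (-1.81 to 0.10) and Ptgs2 over all cells (-0.11 to 0.93). For phagocyte-like minus T/NK-like they were Ptgs1 (-1.39 to 0.11), Ptger2 (-2.64 to 0.28), Alox5ap (-0.12 to 0.68) and Ltc4s (-0.76 to 1.66), and for phagocyte-like minus fibroblast-like Ptgs1 (-3.78 to 2.20), Ptgs2 (-0.19 to 3.23), Hpgds (-5.75 to 1.74) and Ptger2 (-0.11 to 2.93).

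The labels give pairs of tumours collected on separate days but do not say that the replicate number marks the day. Deviations of same-numbered tumours correlated at 0.03 to 0.35 in the 6 sums tested, and with 2 pairs this does not settle the pairing. The block moved Hpgds in phagocyte-like cells to an adjusted p of 0.0166 and Ptgs1 over all cells to 0.0452. The marker gate was not run for conventional dendritic-like cells, which left fewer than 20 cells in 3 tumours. Il1a-/- replicate 1 is the shallowest library, so low genes there rest on few UMIs.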
